A study of Mus musculus with 24 samples.

Results

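Transfer RNA fragments (tRFs) are short RNAs cut from tRNAs. The fragments described here are 15 tRFs from the 5′ part of tRNA-HisGTG, the tRNA that carries histidine to the ribosome. They are the rows, of 8456 in the tRF table, whose sequence code starts with 34HWH3 (2 rows) or V47PU9 (13 rows). A further code of the rule, PW5SVP, which stands for the 5′ end of the tRNA, has no row in the table analysed. The 15 rows hold 3887 of 833071 tRF counts, or 0.467%. They were chosen by their counts in obese against lean liver, where histidine fragments were higher, so values of that kind are given as a description without a test.

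Small RNA was sequenced in 24 libraries from liver of C57Bl/6J mice, 8 per group. AM132 mice had become obese on a high fat diet of 11 weeks and were given 3.3 mg/kg of a 16-nt locked nucleic acid (LNA) oligonucleotide against miR-132 by vein on each of 3 days. AM608 mice had the same diet and schedule with a 15-nt LNA oligonucleotide that targets miR-608 of primates and served as control. Both were killed 7 days after treatment. RCD mice were lean, of matched age and on regular chow, and no injection is stated for them. No group holds obese mice without an oligonucleotide, so diet and injection cannot be told apart in obese against lean liver. The labels number samples and do not say that each is a separate animal, so the p-values cover the spread among these libraries, which may be technical. In a bulk liver sample, fewer cells of a type and less RNA per cell cannot be told apart.

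A tRNA folds into a cloverleaf, with a D arm near its 5′ end and an anticodon loop in the middle. Nucleases such as angiogenin cut that loop in stressed cells and leave long fragments on either side of the cut. Histidine tRNA is unusual in that the cell adds a guanine in front of its first encoded base, which histidyl-tRNA synthetase recognises.

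The sequences below were decoded from the tRF names and are written as DNA, 5′ to 3′. Position 1 is the first base of the PW5SVP start. Capitals mark the anticodon loop, positions 32 to 38, with the anticodon at positions 34 to 36. The stretch that the codes cover is shown first, to place the fragments:
positions 1 to 42: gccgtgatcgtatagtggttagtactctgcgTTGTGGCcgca
The 8 fragments with the highest mean level are shown because they differ by where they start and by how far they reach into the loop:
tRF-30-34HWH3RXSINH: ccgtgatcgtatagtggttagtactctgcg
tRF-29-34HWH3RXSIHM: ccgtgatcgtatagtggttagtactctgc
tRF-19-V47PU9J8: tagtggttagtactctgcg
tRF-20-V47PU9XW: tagtggttagtactctgcgT
tRF-21-V47PU9XWE: tagtggttagtactctgcgTT
tRF-22-V47PU9XWP: tagtggttagtactctgcgTTG
tRF-23-V47PU9XW0N: tagtggttagtactctgcgTTGT
tRF-24-V47PU9XWK0: tagtggttagtactctgcgTTGTG

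The 34HWH3 fragments start at position 2 and the V47PU9 fragments at position 13, inside the D arm. The name given to these fragments, which implies a piece from the 5′ end to the anticodon, therefore holds only in part. None starts at position 1, and the table holds only tRFs of 16 to 30 nt, so a longer piece would not be seen. The 30-nt fragment from position 2 and the 19-nt fragment from position 13 end at the same base, position 31, just before the loop. For the fragment from position 2 this is also the last base that the limit of 30 nt lets be seen. In 3 V47PU9 rows, with 10, 4 and 1 counts, the script found the substitution T32C against the stretch above, counted from position 1. RefSeq (GRCm38.p6) lists 10 mouse tRNA-HisGTG genes, and no fragment was assigned to one of them. None of the 15 matches any of 141767 GENCODE M21 transcripts, the mitochondrial tRNA-His included. Those transcripts hold no nuclear tRNA, so the search could find neither the parent nor a match in another nuclear tRNA.

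**Figure D1:**
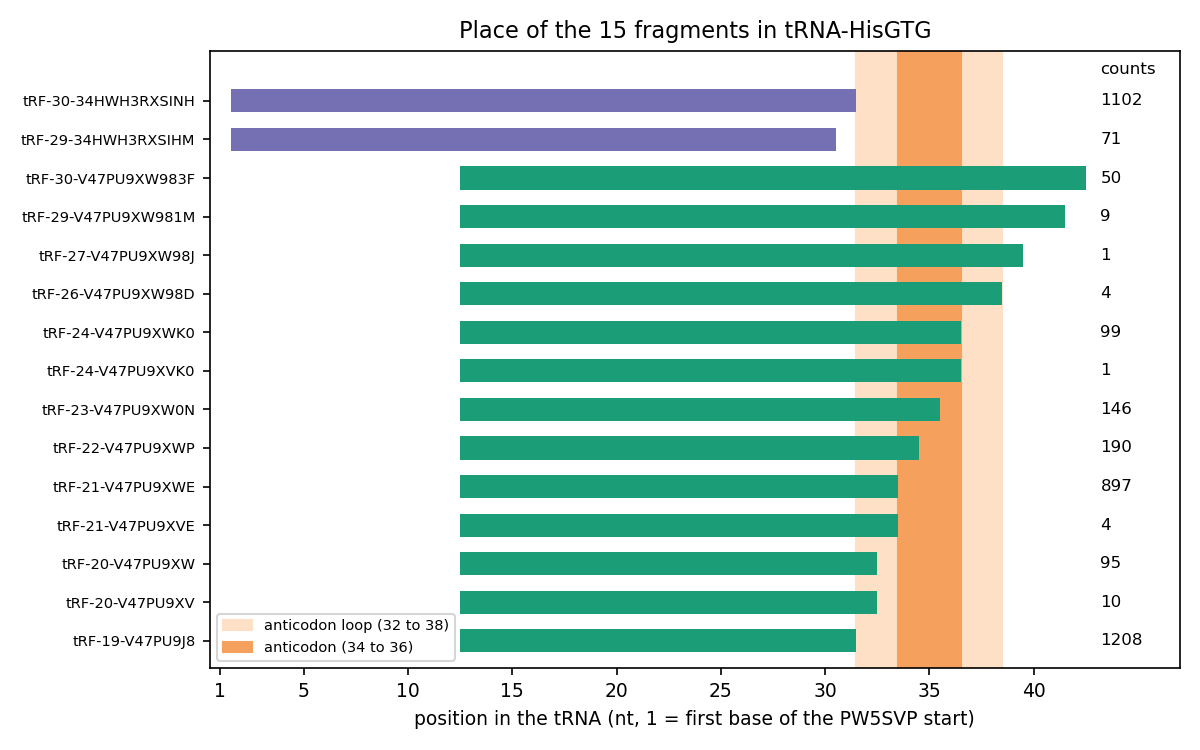
Place of each of the 15 fragments in the tRNA (position in nt, 1 = first base of the PW5SVP start), with its total count over 24 libraries at the right. Purple bars start at position 2 and green bars at position 13, and the fragments with 1208 and 1102 counts both end at position 31.

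The libraries held 20580 to 80578 tRF counts, of which the 15 fragments drew 133 to 523 per AM132 library, 81 to 278 per AM608 library and 43 to 115 per RCD library. Levels are in CPM, counts scaled to the tested tRF counts of the library and its TMM factor, unless a share is named. AM132 library 8 stood apart, since tested tRFs held 48.4% of its tRF counts against 86.9 to 90.4% in the others, which raises its CPM over its shares. The hepatocyte miRNA miR-122-5p was counted in all 24 libraries. RCD library 3 stood apart in markers of other cells: its 7 neuronal miRNAs summed to 1169 CPM of miRNA counts against at most 76.3 in the other libraries, its 3 counted leukocyte miRNAs of 5 listed to 1342 against at most 291, and its 4 mesenchymal miRNAs to 32930 against at most 17710. Its 2 erythroid miRNAs summed to 2244 against at most 1247, and its 4 hepatocyte miRNAs to 342600, the lowest of the 24 libraries. Its 5 biliary miRNAs went the other way from the raised lists, at 567, the lowest of the RCD group, which reached 1727. The neuronal miR-124-3p was at 0 in every AM132 library and reached 11.3 CPM in RCD.

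Only 3 of the 15 fragments passed the filter on low counts, and these hold 82.5% of the counts of the 15. A fragment can pass through the group in which it is high, so the 3 do not stand for the other 12.

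The 30-nt fragment tRF-30-34HWH3RXSINH, the longest piece with the outer start, was highest in AM132. There its lowest, median and highest levels were 1209, 2511 and 3712 CPM. In AM608 they were 598, 972 and 1469 CPM. In RCD they were 497, 681 and 2522 CPM. Of the 8 AM132 libraries 7 lay above the highest AM608 library, and the lowest lay among the AM608 values.

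This fragment rose in AM132 against AM608, from 1005 ± 373 to 2502 ± 757 CPM (mean ± SD, n = 8 each), with a log2 fold change of 1.31 ± 0.316 (SE) and an adjusted p of 0.0183 in edgeR's quasi-likelihood test. It was the 1 called of the 3 tested, where 5.08% of all 295 tested tRFs were called and 4.07% were called higher. Its groups overlapped, as did those of the other 2. Over all tested tRFs 1.02% did not overlap in either direction and 0.678% did not overlap and were higher. The call was lost without AM608 library 7 (edgeR adjusted p = 0.0559) or AM608 library 8 (edgeR adjusted p = 0.0530), and was kept without AM132 library 8 (log2 fold change 1.17, edgeR adjusted p = 0.0469). It was also lost when tRFs with a mean of at least 10 CPM were tested (log2 fold change 1.23, edgeR adjusted p = 0.0586). AM132 is among the obese groups in which histidine fragments were seen to be higher, so this test is not free of that choice.

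Against lean liver the 30-nt fragment had a log2 fold change of 1.36 (SE 0.322) in AM132 and of 0.05 (SE 0.323) in AM608. The AM608 value thus shows little of the difference for which histidine fragments were chosen. RCD library 3 held the highest RCD level, 2522 CPM, and the other 7 lay at 497 to 1601 CPM. Without that library the log2 fold changes were 1.74 and 0.45. The part of its raised neuronal, leukocyte, mesenchymal and erythroid markers and low hepatocyte and biliary markers in this value was not tested.

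The 21-nt fragment tRF-21-V47PU9XWE ends inside the loop, at the base before the anticodon. Its lowest, median and highest levels were 795, 1436 and 1887 CPM in AM132. In AM608 they were 798, 1459 and 1750 CPM. In RCD they were 468, 711 and 1000 CPM. In each obese group 7 of 8 libraries lay above the highest RCD library, while the obese groups covered nearly the same range.

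For the 21-nt fragment the log2 fold change was 1.00 (SE 0.206) in AM608 against RCD and 1.00 (SE 0.207) in AM132 against RCD. These comparisons share the RCD libraries. AM132 against AM608 gave −0.004 (SE 0.196, edgeR adjusted p = 0.995), and 2 SE on either side reach from −0.40 to 0.39.

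The 19-nt fragment tRF-19-V47PU9J8 shares its last base with the 30-nt fragment. Its lowest, median and highest levels were 1309, 2045 and 2630 CPM in AM132. In AM608 they were 1004, 1561 and 2352 CPM. In RCD they were 681, 1061 and 1601 CPM. All groups overlapped, with 6 AM132 and 4 AM608 libraries above the highest RCD library.

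For the 19-nt fragment the log2 fold change against RCD was 0.57 (SE 0.208) in AM608 and 0.81 (SE 0.208) in AM132. AM132 against AM608 gave 0.24 (SE 0.202, edgeR adjusted p = 0.511), and 2 SE on either side reach from −0.16 to 0.64.

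**Figure D2:**
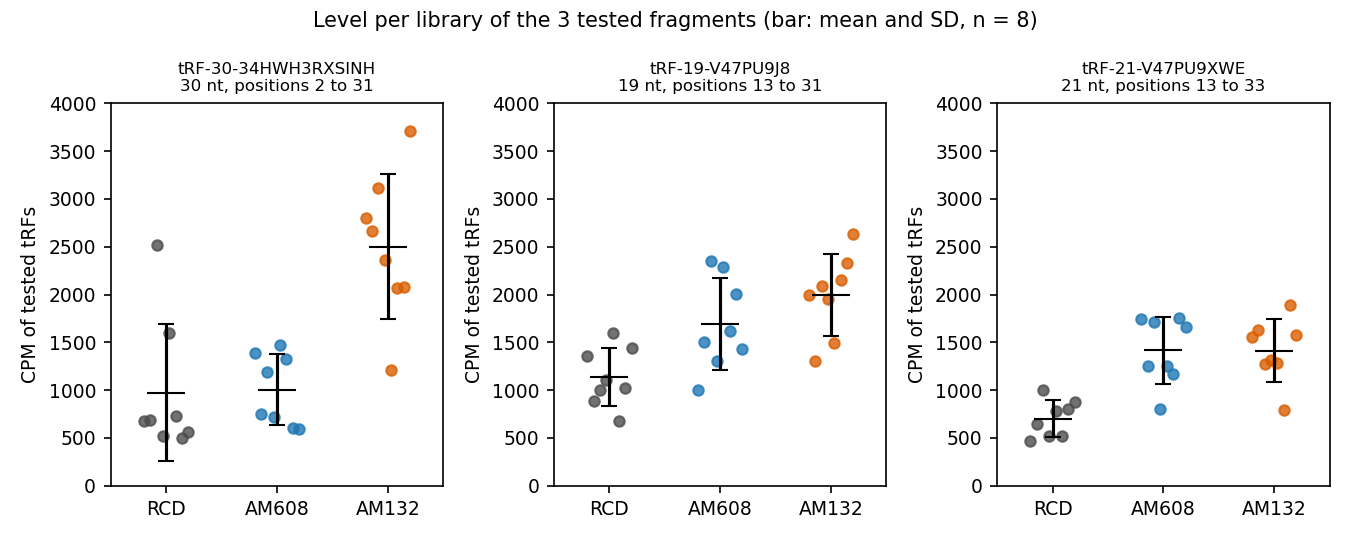
Level of the 3 tested fragments (CPM of tested tRFs), 1 point per library, with mean and SD of 8 libraries per group. The 30-nt fragment averaged 2502 CPM in AM132 and 1005 CPM in AM608, while the 21-nt fragment averaged 1413 and 1417 CPM there and 702 CPM in RCD.

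The outer start took a larger share of the 15 fragments in AM132 than in AM608. Fragments from position 2 made up 26.8 to 45.0% of their counts in AM132 (median 39.1%), 13.9 to 30.8% in AM608 (median 21.7%) and 17.9 to 54.8% in RCD (median 24.6%). Of the AM132 libraries 6 lay above the highest AM608 library. RCD library 3 had the highest share of all. The tRFs counted reach at most 30 nt. A piece from position 2 is thus seen only up to position 31, and one from position 13 up to position 42. Longer pieces from position 2 are not in these shares. The difference in share was not tested, as it sums over members.

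The 30-nt and 19-nt fragments end at the same base, so the ratio of their counts compares the starts of pieces with this end only. The ratio does not depend on library scaling. Its log2 value was 0.29 ± 0.44 in AM132, −0.79 ± 0.66 in AM608 and −0.43 ± 0.89 in RCD (mean ± SD, n = 8 each). All 8 AM132 libraries lay above the AM608 median, and 4 above the highest AM608 value, 0.47. RCD library 3 was at 1.33, and the other 7 RCD libraries were at −1.36 to 0.11.

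**Figure D3:**
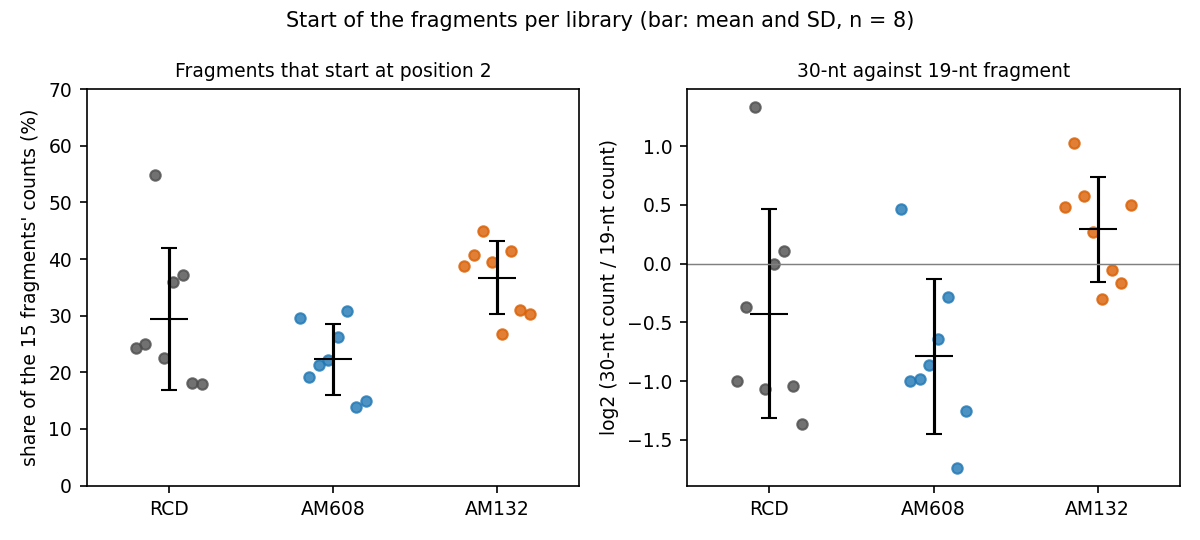
Left, share of the counts of the 15 fragments that start at position 2 (%), and right, log2 ratio of the 30-nt to the 19-nt count, 1 point per library with mean and SD of 8 per group. The ratio averaged 0.29 in AM132 and −0.79 in AM608, and RCD library 3 (54.8%, ratio 1.33) lies above the other RCD libraries.

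Summed, the V47PU9 fragments lay at 3101 to 8972 CPM in AM132 (median 4063), 2647 to 4620 CPM in AM608 (median 3603) and 1415 to 3106 CPM in RCD (median 2248). Of the 8 AM608 libraries 7 lay above the highest RCD library. Summed 34HWH3 fragments had medians of 2616 CPM in AM132, 1003 CPM in AM608 and 759 CPM in RCD, and no AM608 library lay above the highest RCD library, 2739 CPM.

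All 15 together made up 0.439 to 0.724% of tRF counts in AM132 (median 0.643%), 0.271 to 0.597% in AM608 (median 0.434%) and 0.193 to 0.410% in RCD (median 0.261%). Every AM132 library lay above every RCD library on this scale, and AM608 overlapped both. In CPM the AM132 and RCD sums overlapped. Means of log2 CPM differed by 0.55 in AM608 against RCD, 1.10 in AM132 against RCD and 0.55 in AM132 against AM608. Scaled to miRNA counts the first pair of differences was larger, at 0.95 and 1.50. The sum rests on members chosen for being higher in obese liver.

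The other fragments were rare. The 22-nt fragment tRF-22-V47PU9XWP, which takes in the first anticodon base, drew 0 to 66 counts in an AM132 library, 3 to 10 in an AM608 library and 1 to 7 in an RCD library. The 23-nt fragment tRF-23-V47PU9XW0N drew 1 to 23, 3 to 15 and 0 to 10 counts in the same order of groups. The 20-nt tRF-20-V47PU9XW drew 1 to 7, 0 to 14 and 0 to 4. These 3 rows did not pass the filter on low counts, and their ranges overlapped between all groups. Counts of the rare rows, here and in the next paragraph, are not scaled to library depth, which differed between libraries.

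The second 34HWH3 row, tRF-29-34HWH3RXSIHM, is 1 base shorter than the 30-nt fragment. Its counts ran from 2 to 7 in AM132, from 1 to 7 in AM608 and from 0 to 5 in RCD, and the groups overlapped. tRF-30-V47PU9XW983F, the fragment that runs through the whole loop to position 42, had 50 counts in all. The remaining 6 rows had 10 or fewer counts each over all 24 libraries.

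The 24-nt fragment tRF-24-V47PU9XWK0, which ends with the anticodon, came almost wholly from 1 library. AM132 library 8 held 94 of its 99 counts, 2311 CPM, and the other AM132 libraries lay at 0 to 40.01 CPM. It was seen in 3 AM132, 2 AM608 and 1 RCD libraries. With no filter on low counts it was called in AM132 against AM608 (log2 fold change 4.45, edgeR adjusted p = 7.83e-04), a call that rests on that library.

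Within the V47PU9 fragments the last base lay mostly at 2 positions. Ends at position 31 made up 45.9% ± 12.4 of their counts in AM132, 44.9% ± 7.98 in AM608 and 49.0% ± 4.37 in RCD (mean ± SD, n = 8 each). Ends at position 33, inside the loop, made up 32.4% ± 7.69, 38.1% ± 7.21 and 31.2% ± 8.13. The groups overlapped at both positions.

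Other pieces of the same tRNA bring the 5′ part to 147 rows with 23156 counts. Of these, 108 rows with 12904 counts lie inside the same stretch with another start, and most of these counts start at positions 14 to 17. All 8 tested rows of this kind had a log2 fold change above 0 in AM608 against RCD (median 0.54), as did 140 of all 295 tested tRFs. In AM132 against RCD 7 of 8 lay above 0 (median 0.60), as did 154 of all 295. These rows overlap each other in sequence, share libraries and parent with the 15 and are given as a description. In AM132 against AM608 none of the 8 was called in edgeR (median 0.13).

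A further 24 rows carry 1 base in front of position 1, T in 12 rows with 4951 counts and A in 12 rows with 1414 counts. No row has G there, the base that the cell adds to histidine tRNA. The 2 most counted rows with T and the most counted row with A are shown because they hold the first base of the tRNA, which none of the 15 does:
tRF-27-XSXMSL73VL3: tgccgtgatcgtatagtggttagtact
tRF-24-XSXMSL732Z: tgccgtgatcgtatagtggttagt
tRF-24-FSXMSL732Z: agccgtgatcgtatagtggttagt
The rows shown end at position 23 or 26, before the loop, which no row of at most 30 nt with this start can reach. All 5 tested rows of this kind had a log2 fold change below 0 in AM608 against RCD, with medians of −0.33 for the 3 with T and −0.44 for the 2 with A. Of all 295 tested tRFs 140 lay above 0 in that comparison. In AM132 the 27-nt rows and the shorter ones had opposite signs. The log2 fold change of tRF-27-XSXMSL73VL3 was 1.62 (SE 0.628) against AM608 and 1.35 (SE 0.626) against RCD, and that of tRF-27-FSXMSL73VL3 was 1.50 (SE 0.548) and 1.16 (SE 0.557). The AM132 libraries were widely spread for tRF-27-XSXMSL73VL3, at 762 to 16200 CPM. They overlapped AM608, at 848 to 5610 CPM, and RCD, at 598 to 6740 CPM. Only 4 of 8 AM132 libraries lay above the highest AM608 library, and 3 above the highest RCD library. The 3 shorter rows, of 23 and 24 nt, lay below 0 in both comparisons. None of the 5 was called in AM132 against AM608 (edgeR adjusted p = 0.145 and 0.139 for the 27-nt rows). Rows from the 3′ end of the tRNA, ending in CCA, were 3 with 112 counts.

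**Figure D4:**
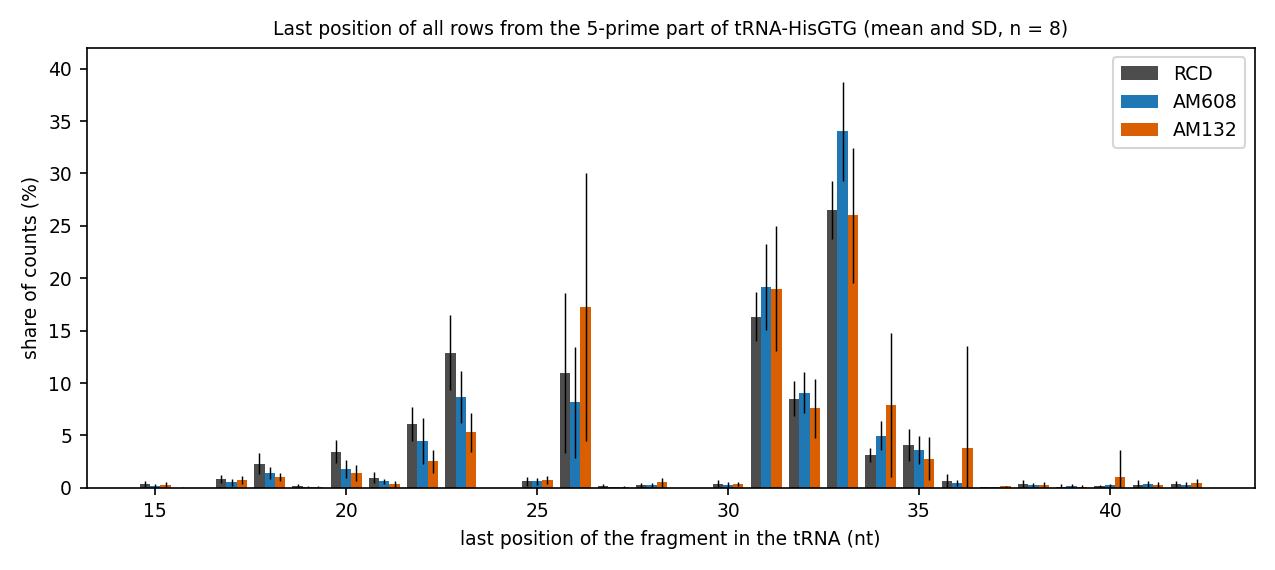
Share of the counts of the 147 rows from the 5′ part of the tRNA (%) by last position (nt), mean and SD of 8 libraries per group. Position 33 has the tallest bars, and the wide AM132 error bar at position 36 comes from library 8, at 27.9%.

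Over the 147 rows, ends at position 33 were most frequent in AM608, at 26.8 to 41.3% (median 35.1%), against 21.1 to 29.5% in RCD (median 27.1%) and a median of 26.7% in AM132. Of the AM608 libraries 7 lay above the highest RCD library. Ends at position 23, which come from rows with the extra base, were lowest in AM132, at 1.22 to 7.20%. They made up 4.86 to 11.8% in AM608, and in RCD 8.23 to 19.3%. No AM132 library reached the lowest RCD library. This is a share of the 147 rows, so it also depends on the counts at other ends. In CPM the most counted row that ends there, tRF-24-XSXMSL732Z, overlapped between these groups, at 711 to 2256 in AM132 and 1520 to 3041 in RCD. Ends at position 36 were at 27.9% in AM132 library 8 and at most 0.864% in the other 7. The limit of 30 nt also keeps pieces that start before position 13 from showing ends up to position 42.

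5′ fragments of other tRNAs were found by the codes of their first bases, in 173 rows of which 58 were tested. In AM608 against RCD the edgeR test called none of the 58 higher and 6 lower, with 1.69% of all tested tRFs called higher, 2.71% lower and 4.41% in all. Their median log2 fold change was −0.57, and that of all tested tRFs was −0.03. In AM132 against RCD 2 were called higher and 18 lower (median −0.66), with 6.1% of all tested tRFs called higher, 9.15% lower and 15.3% in all. The medians of the 3 tested histidine fragments were 0.57 and 1.00, and the choice of the members used these contrasts. These fragments start after the first base of the tRNA, so their starts differ from those of the other tRNAs' fragments. The tested histidine rows with an extra base in front hold that first base. Their medians in AM608 against RCD were −0.33 with T and −0.44 with A, below 0 like that of the 58. In AM132 against RCD they were −0.49 and 0.205. Without regard to direction, 0.339% of all tested tRFs had no overlap in AM608 against RCD and 0.678% in AM132 against RCD. All of the 3 tested histidine fragments overlapped in both.

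The members were not chosen by AM132 against AM608, though the AM132 levels entered the choice. In this contrast 8 of the 58 were called higher and 2 lower (median −0.10), with 4.07% of all tested tRFs called higher and 1.02% lower. Those higher were 4 of 8 tested alanine fragments, 2 of 7 for LysTTT and 2 of 4 for serine. Those lower were 1 alanine and 1 serine fragment. The 11 tested GluTTC fragments, the family with the most counts, all had a log2 fold change below 0 (median −0.58), and none was called. Of all 295 tested tRFs 144 lay above 0. The 30-nt histidine fragment, at 1.31, lay near the medians of the alanine (1.38) and serine (1.51) fragments, but it is a single row. The median of the 3 tested histidine fragments, which start after the first base, was 0.24. The tested histidine rows with an extra base in front had medians of −0.16 with T and 0.64 with A. No difference between families was tested.

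The tested tRFs whose log2 level over the 24 libraries was most like the summed 15 were taken from 292 tested tRFs outside the rule. Pearson's r was 0.73 for tRF-20-VBY9PYKH, 0.69 for tRF-20-73VL4YMY, 0.65 for tRF-21-73V2Y8L9E, 0.59 for tRF-22-1EWJQ72SJ and 0.58 for tRF-24-3JVIJMRPEU. After group means were subtracted it was 0.61, 0.49, 0.50, 0.44 and 0.57. The points share library, depth and scaling. They include AM132 library 8, where the sum lay at 12860 CPM against 4905 to 7476 in the other AM132 libraries, and r was not computed without it. The sequences show that the second lies in the histidine stretch, at positions 15 to 34:
tRF-20-VBY9PYKH: tagaattctcgcctgccacg
tRF-20-73VL4YMY: gtggttagtactctgcgTTG
tRF-21-73V2Y8L9E: gtggttaggattcggcgctct
tRF-22-1EWJQ72SJ: aggattcggcgctctcaccgcc
tRF-24-3JVIJMRPEU: ccggctagctcagtcggtagagca
None of the 5 was called in AM132 against AM608, with log2 fold changes of 0.21 to 1.37.

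Sums of marker miRNAs were set side by side for the obese groups, without a test. The 4 hepatocyte miRNAs summed to 458200 to 526200 CPM of miRNA counts in AM132 and 384300 to 463900 in AM608, ranges that barely overlap. The 4 mesenchymal miRNAs summed to 7202 to 12210 in AM132 and 9311 to 17710 in AM608, and the 5 biliary ones to 778 to 2173 and 565 to 3584. The 7 neuronal ones summed to 13.7 to 32.6 and 29.8 to 46.5, the 3 counted leukocyte ones to 98.2 to 268 and 123 to 286, and the 2 erythroid ones to 225 to 1247 and 342 to 725. Their part in the higher 30-nt fragment was not tested.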

How the data were processed

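The 24 small RNA libraries of liver were made with the NEBNext kit and run on an Illumina NextSeq, per the labels' protocols. The authors deposited raw read counts per tRF and per mature miRNA. Per the submitters' processing notes FastQC was used. No aligner, counting rule or build is stated in the labels, and the text names no molecular identifiers.

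The members and lists were chosen with earlier results of these data known. All 8456 tRF names were decoded to sequences and encoded back to themselves. The fit used edgeR 4.0.16 (R 4.3.3), with robust quasi-likelihood, TMM factors, filterByExpr, no term but group, and all 24 libraries. Benjamini-Hochberg adjustment ran over 295 tested tRFs, and calls needed an adjusted p under 0.05. The SE is the absolute log2 fold change over the square root of F. The script was tested on simulated data. Sums on the log2 scale use a prior of 0.5 counts. Over 84 pairs of libraries within groups the lowest chi-square per degree of freedom was 2.08, so none was counted as the same library sequenced again. This cannot tell separate preparations of 1 liver from separate livers. Named are the 8 members with the highest mean level, members called in AM132 against AM608, the extremes of AM608 against RCD and the 5 most like tRFs; further rows of the tRNA were chosen after their values were seen. As both codes have a 30-nt row, other starts were sought in the stretch that these join to. The codes listed for GluCTC and Cys gave no rows and were not analysed here. Alternatives were other factors and filters, DESeq2 1.42.0, other denominators, a replicate block and leaving out libraries.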

Additional observations from a re-analysis of the deposited data

Results flagged for a closer look

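In 36 sets of 8 libraries (fragments with at least 50 counts, their sum, the share from position 2 and the 30-nt to 19-nt ratio, in 3 groups), 6 held a library whose distance from the next was above Dixon's critical value for its range. Chance gives this in about 1 of 20 independent sets of normally spread values. The sets here share libraries and scaling, and some are mostly at 0, so the 6 cannot be set against that rate. AM132 library 8 lay at 1622 CPM for tRF-22-V47PU9XWP, where the others reached 587, and at 565 CPM for tRF-23-V47PU9XW0N, where they reached 249. It lay at 2311 CPM for tRF-24-V47PU9XWK0, where they reached 40.01, and at 12860 CPM for the summed 15 fragments, where they lay at 4905 to 7476. As a share of all tRF counts that sum was 0.649%, inside the range of the AM132 group (0.439 to 0.724%). RCD library 1 lay at 364 CPM for tRF-22-V47PU9XWP, where the others reached 104.9. It lay at 52.01 CPM for tRF-24-V47PU9XWK0, which is 1 count, with the other RCD libraries at 0.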

How the results depend on the processing

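In AM132 against AM608, 1 histidine fragment was called, 2 with no filter on low counts, 0 at a mean of at least 10 CPM, and 0 to 1 with single libraries left out. All called tRFs were 15, and 208, 5 and 10 with no filter, at a mean of 10 CPM and with library totals, and the median of all tRFs moved to 0.23 and 0.27 under the first pair of these. The log2 fold change of tRF-30-34HWH3RXSINH ran from 1.10 to 1.39 over the settings and from 1.17 to 1.40 with single libraries left out. That of tRF-21-V47PU9XWE, near 0, changed sign: it was 0.047 with RLE factors, 0.049 with DESeq2, 0.005 with the replicate block, 0.008 without AM132 library 8 and RCD library 3 (chosen after seeing the data), and −0.10 to 0.065 with single libraries left out. Scaled to miRNA counts, the summed fragments differed by 0.95 (AM608 against RCD) and 1.50 (AM132 against RCD) on the log2 scale. The cause was not tested. With the replicate block the 30-nt fragment stood at 1.39 (adjusted p = 0.00965 in edgeR), 1 histidine fragment was called, and 16 tRFs in all. In 13 of 24 same-numbered pairs the deviations correlated above 0.1, and 4, 2 and 5 of 16 libraries in the 3 comparisons correlated best with their own number, so the numbers were not taken to pair the samples. PW5SVP rows alone were not run, as the table analysed has none. Low counts kept 12 fragments from a test.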
